A study of Mus musculus with 11 samples.

Results

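Lhx2, Lhx9 and Lmx1b, which encode LIM homeodomain transcription factors, were examined together with the genes of their cofactors, Ldb1, Ldb2, Lmo1, Lmo2 and Lmo4, in forelimb buds of mouse embryos with lowered Geminin. The genes were chosen by name, and all 8 were found among the 47517 gene names of the count table. All 8 had enough reads to enter the tests. By edgeR, 1 of the 8 passed at an adjusted p under 0.05, where 2.18% of all genes tested did: Lhx9 was lower in mutants, at 0.714 of the control mean. That call was lost in 9 of 11 fits with a library left out and without the litter block. It was also lost with a covariate, the mean level of genes with long T runs. There the log2 fold change of Lhx9 went from -0.50 to -0.27. Its paralogue Lhx2 had a higher mean in mutants (1.26 of the control mean) but did not pass the test.

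LIM homeodomain proteins bind DNA through a homeodomain and bind partner proteins through a pair of LIM domains. The LIM domains are held by Ldb1 or Ldb2, adaptor proteins that dimerize and so bring LIM homeodomain proteins together in active complexes. LIM-only proteins (Lmo1, Lmo2, Lmo4) have LIM domains and no homeodomain, and can compete for Ldb or join it to other factors. In the limb bud, Lhx2 and Lhx9 are made in the distal mesenchyme, where they relay Fgf signals from the apical ectodermal ridge to genes of outgrowth and of posterior patterning. Lmx1b is turned on in dorsal mesenchyme by Wnt7a from the dorsal ectoderm and gives the limb its dorsal character.

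The 11 libraries were made from ribosome-depleted total RNA of forelimb buds at E10.5 on a C57BL/6 background. Mutants (Gmnn f/f; Prx-Cre, 6 libraries) had both Gmnn alleles floxed, and controls (Gmnn +/f; Prx-Cre, 5 libraries) had 1 floxed allele. All embryos of both groups carried the Cre transgene, which acts in limb mesenchyme and not in the overlying ectoderm, so that the controls are not wild type. The libraries came from 4 litters, called A to D here: A held controls 1 and 2 and mutants 1 and 2, B control 3 and mutant 6, C control 4 and mutant 5, and D control 5 and mutants 3 and 4. The design text speaks of 6 pairs of embryos matched by litter and somites, and 11 libraries were analysed here. The text does not say whether 1 library holds the buds of 1 embryo, and p-values measure the spread between libraries.

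Totals were 14721181 to 19733288 counts per library, of which 6996 to 10486 fell on the 8 genes. Gmnn was lower in mutants in all 4 litters (log2 fold change -0.67, SE 0.10, edgeR adjusted p 0.0291), a call lost in 8 of the 11 fits without 1 library. Limb mesenchyme markers were present in every library, with a summed level of 583 to 855 CPM over 8 genes in controls and 590 to 698 CPM in mutants. Levels are given as CPM, counts scaled by the effective library size. In bulk tissue, fewer cells of a type and less RNA per cell cannot be told apart. Control 5 and mutant 4, both of litter D, had the lowest summed level of 5 distal Hox genes (18.2 and 33.2 CPM, against 53.3 to 137.7 CPM in the other 9 libraries), although the embryos were matched by somites. Results that rest on these libraries are given with their values.

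The stretches of 250 bases before the RefSeq transcription starts are shown for the 3 LIM homeodomain genes and Lmo1, so that the stretches for Lhx9, its paralogue, the dorsal gene and the 1 gene with the motif below can be read side by side. RefSeq (GRCm38.p6, the assembly that mm10 names) gave such windows for 6 of the 8 genes, 12 in all. They are written on the strand of the gene, in lower case, with capitals marking TAATTA, the core that LIM homeodomain proteins can bind. That motif is its own reverse complement, so that a match counts for both strands.
Lhx9, chr1:138842445-138842694, minus strand: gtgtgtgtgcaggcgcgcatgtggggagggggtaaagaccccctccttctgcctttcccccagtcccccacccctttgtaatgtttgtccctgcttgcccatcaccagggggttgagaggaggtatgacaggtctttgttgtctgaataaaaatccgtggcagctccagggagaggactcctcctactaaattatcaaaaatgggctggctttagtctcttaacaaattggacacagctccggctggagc
Lhx2, chr2:38339031-38339280, plus strand: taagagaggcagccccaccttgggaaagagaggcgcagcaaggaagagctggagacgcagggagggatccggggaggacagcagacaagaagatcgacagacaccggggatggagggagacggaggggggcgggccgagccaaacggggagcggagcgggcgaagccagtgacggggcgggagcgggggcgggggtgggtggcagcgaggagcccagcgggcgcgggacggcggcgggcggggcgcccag
Lmx1b, chr2:33641099-33641348, minus strand: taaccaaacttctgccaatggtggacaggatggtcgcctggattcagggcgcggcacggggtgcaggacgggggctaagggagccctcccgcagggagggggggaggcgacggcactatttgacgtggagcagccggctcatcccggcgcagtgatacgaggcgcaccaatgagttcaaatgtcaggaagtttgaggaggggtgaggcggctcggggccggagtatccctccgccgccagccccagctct
Lmo1, chr7:109175208-109175457, minus strand: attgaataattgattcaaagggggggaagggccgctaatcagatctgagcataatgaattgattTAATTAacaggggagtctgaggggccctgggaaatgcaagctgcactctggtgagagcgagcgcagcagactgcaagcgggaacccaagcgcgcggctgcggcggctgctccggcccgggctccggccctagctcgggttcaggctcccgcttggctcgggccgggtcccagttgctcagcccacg
The Lhx9 window lies inside the span of the gene in the deposited table, ahead of a start within it, while the other 3 windows lie outside the spans of their genes. Of the windows shown, the Lhx9 one had the lowest GC content (53.6%), and the Lhx2 one the highest (72.8%). Lhx2 and Lmo1 each had another window that is not shown. That of Lhx2 (chr2:38351058-38351307, 68.4% GC) lies inside the span of its gene. Over all 12 windows, GC content ran from 53.2% (Ldb1) to 82.4% (Lmo4). In the windows shown, TAATTA was found once, ahead of Lmo1. Over all genes with a RefSeq window, 5.65% held the motif (1527 of 27025), and 1 of the 6 genes here did. A match is a string of letters and shows no binding.

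Compared per length, as RPKM (reads per kilobase of exon, scaled to library size), the 8 genes lay within a narrow range in controls. Lhx9 stood highest, at 26.2 ± 3.38 RPKM (SD, n = 5), followed by Lmo4 at 21.4 ± 2.09, Ldb1 at 17.9 ± 1.71, Ldb2 at 11.1 ± 4.07, Lmo1 at 10.4 ± 2.94, Lhx2 at 8.81 ± 1.76, Lmx1b at 8.53 ± 1.61 and Lmo2 at 5.85 ± 1.73 RPKM. Of the neighbours in this order, only Lmo4 and Ldb1 had ranges over the 5 controls that did not overlap. Ldb1 was above Ldb2 in all 11 libraries, while Ldb2 and Lmo1 changed places in many (Ldb2 was above Lmo1 in 5 of the 11). In mutants the order at the top differed: Ldb1 (20.3 ± 3.0 RPKM, n = 6), Lmo4 (19.8 ± 2.47) and Lhx9 (18.7 ± 2.57) lay close together. Lhx9 exceeded Lmo4 in 4 of the 5 controls and in 1 of the 6 mutants. Values normalized to the summed transcript level of each library gave the same order in controls.

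**Figure D1:**
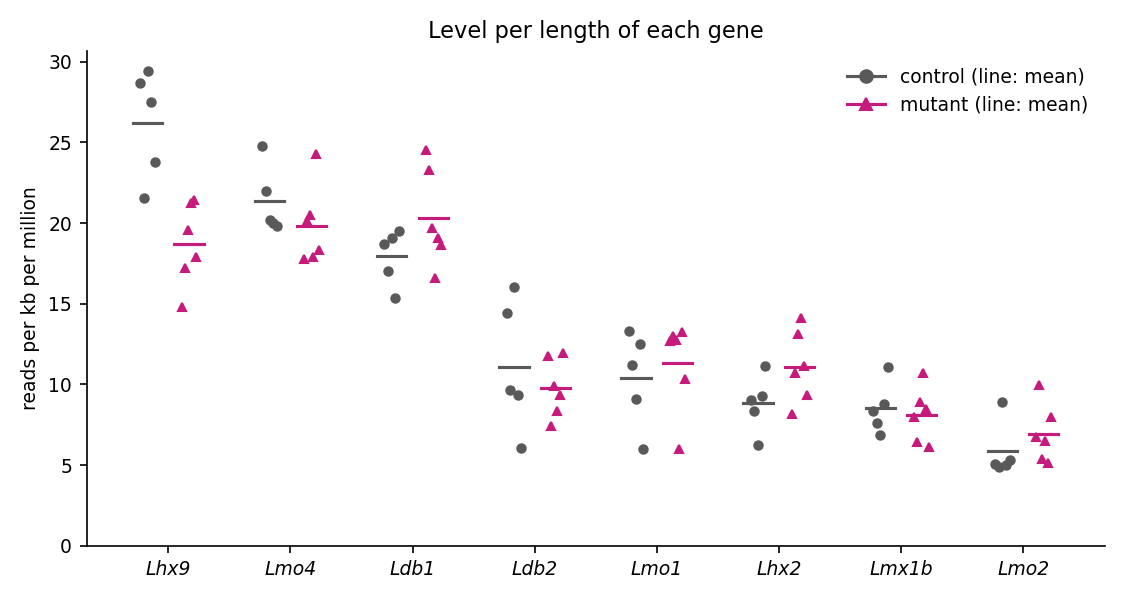
Level per length (RPKM, vertical axis) of the 8 genes in each control (grey circles) and mutant (magenta triangles) library, with lines at the group means, in the order of the control means. Lhx9 leads in controls at a mean of 26.2 RPKM and lies beside Lmo4 and Ldb1 in mutants at 18.7 RPKM.

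Lhx9 (chromosome 1, 138825186 to 138848577, minus strand, mm10, with 9 exon blocks of 9494 bases) encodes the LIM homeodomain factor that acts beside Lhx2 in distal limb mesenchyme. It stood at 272.0, 204.7, 279.6, 261.2 and 225.8 CPM in controls 1 to 5, and at 140.4, 163.4, 186.0, 201.9, 203.6 and 170.0 CPM in mutants 1 to 6. The groups did not overlap, with the highest mutant (mutant 5) just under the lowest control (control 2). The means were 248.7 ± 32.1 CPM (SD, n = 5) and 177.5 ± 24.4 CPM (SD, n = 6). Lhx9 fell by 0.50 on the log2 scale (SE 0.10, 95% interval -0.72 to -0.29, edgeR quasi-likelihood adjusted p 0.0406). Taken litter by litter, the log2 difference was -0.64 in A, -0.72 in B, -0.36 in C and -0.22 in D, so that its sign was negative in 4 of 4. Only the true assignment, 1 of the 72 arrangements of genotypes within litters, reached that distance from 0 (exact permutation p 0.0139, the smallest that they allow).

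The call for Lhx9 held without control 5 or without mutant 2, and was lost when any of the other 9 libraries was left out (log2 fold change -0.59 to -0.42 and adjusted p up to 0.179 over the 11 edgeR fits). Litters B and C hold 1 library of each genotype, so that leaving out either takes the litter out of the comparison. A property of the libraries moved with it. The mean log2 CPM of 172 genes with T runs of 26 or more bases in a transcript, called the T-run index here, was 5.40, 5.14, 5.36, 5.29 and 4.73 in controls 1 to 5 and 4.77, 4.40, 4.62, 4.59, 5.04 and 4.81 in mutants 1 to 6. It was lower in every mutant than in every control but control 5. The index thus nearly follows genotype, which limits how well a fit with both can tell them apart. In such a fit Gmnn was still called, at a log2 fold change of -1.08 (edgeR adjusted p 0.000904). What the index measures was not tested. The longest T run in an Lhx9 transcript has 15 bases. With the index as a covariate the log2 fold change of Lhx9 was -0.27 (edgeR adjusted p 0.495). Without the litter block the log2 fold change was -0.49 (edgeR adjusted p 0.0574).

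**Figure D2:**
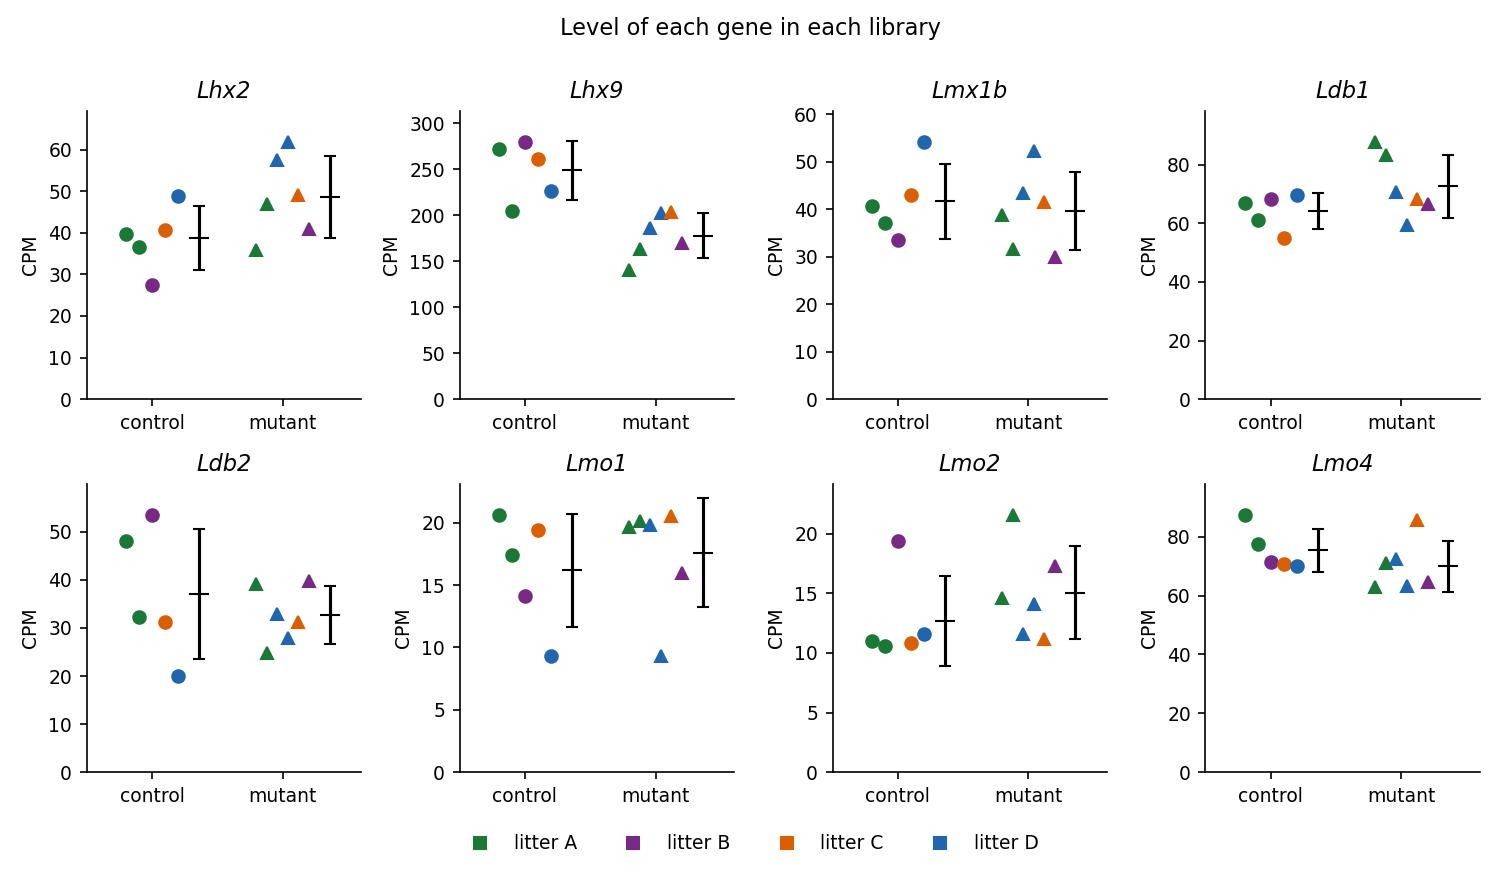
Level (CPM, vertical axes from 0) of each of the 8 genes in control (circles) and mutant (triangles) libraries, coloured by litter, with the mean and SD of each group at its right. Lhx9 is the gene whose 6 mutant values (140.4 to 203.6 CPM) all lie below its 5 control values (204.7 to 279.6 CPM).

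Lhx2 (chromosome 2, 38339281 to 38369733, plus strand), the paralogue with which Lhx9 shares much of its limb function, did not pass the test, and its fitted difference had the opposite sign. It was 39.7, 36.7, 27.5, 40.8 and 48.9 CPM in controls 1 to 5 and 35.8, 47.0, 57.5, 61.9, 49.0 and 41.0 CPM in mutants 1 to 6. The groups overlapped, with control 3 lowest and the 2 mutants of litter D highest. The fitted difference was 0.27 on the log2 scale (SE 0.094, 95% interval 0.067 to 0.48), with an unadjusted p of 0.0136 and an edgeR adjusted p of 0.13. Its sign was positive in 4 of 4 litters, and 5 of the 72 arrangements were at least as far from 0 (exact permutation p 0.0694).

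The balance between the paralogues within each library is given as a description with no test, since it was chosen after their values were seen. Read as CPM and not per length, the log2 ratio of Lhx9 over Lhx2 was 2.77, 2.48, 3.34, 2.68 and 2.20 in controls 1 to 5 and 1.97, 1.80, 1.69, 1.70, 2.05 and 2.05 in mutants 1 to 6. Every mutant was below every control, and the spread was larger among controls (SD 0.421) than among mutants (SD 0.167). Adjusted for litter, the mutant minus control difference was -0.76 on the log2 scale. Scaling of the libraries cancels in this ratio. Leaving out each library in turn gave -0.85 to -0.64.

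**Figure D3:**
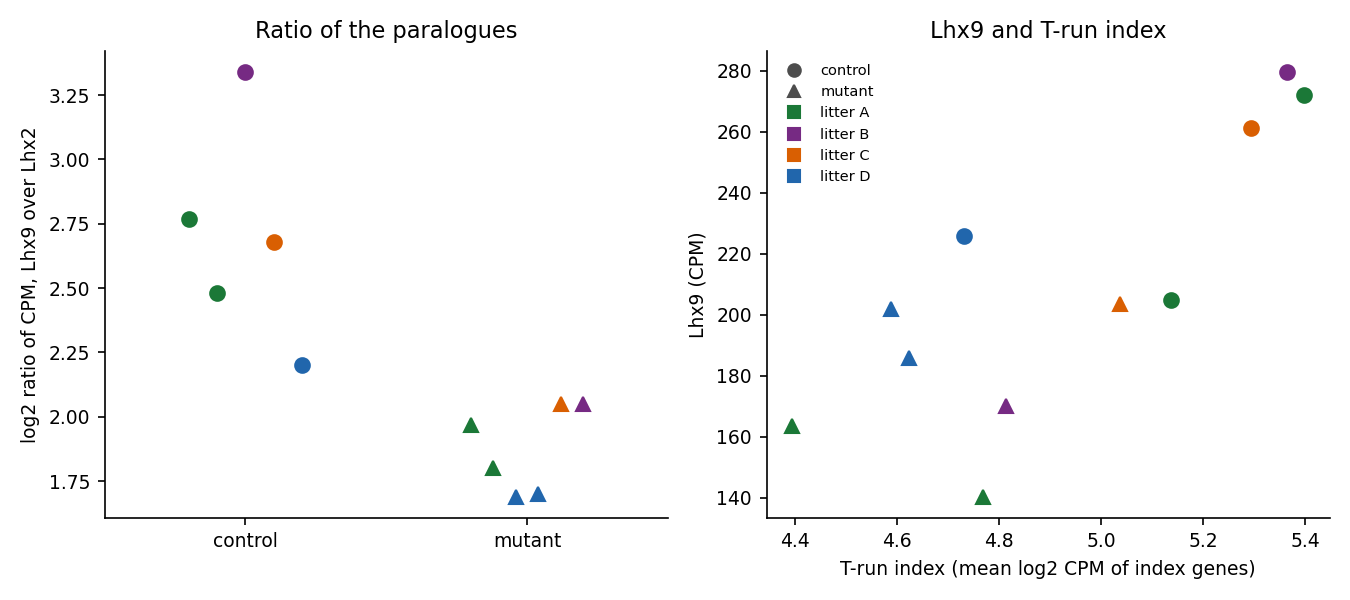
Left, log2 ratio of the CPM of Lhx9 over Lhx2 (vertical axis, not from 0) in each library by genotype; right, CPM of Lhx9 against the T-run index of the library, with circles for controls, triangles for mutants and colours for litters. The mutant ratios (1.69 to 2.05) lie below the control ratios (2.20 to 3.34), and the T-run index of control 5 (4.73) lies among those of the mutants.

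Lmx1b (chromosome 2, 33560965 to 33640511, minus strand), the dorsal gene, stood at 40.6, 37.1, 33.4, 42.9 and 54.2 CPM in controls 1 to 5 and at 38.8, 31.5, 43.4, 52.1, 41.4 and 29.8 CPM in mutants 1 to 6. The groups covered nearly the same range. The fitted log2 difference was -0.14 (SE 0.083, 95% interval -0.32 to 0.041, edgeR adjusted p 0.362), which leaves room for a level between 0.802 and 1.03 of the control. Its sign was negative in all 4 litters, from -0.19 in litter D to -0.05 in litter C. Libraries of litter D were high in both genotypes, and those of litter B low.

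Among the adaptors, Ldb1 (chromosome 19, 46032593 to 46045214, minus strand) was 67.0, 61.0, 68.4, 55.1 and 69.8 CPM in controls 1 to 5 and 87.9, 83.4, 70.6, 59.5, 68.3 and 66.8 CPM in mutants 1 to 6. Mutants 1 and 2 of litter A and, narrowly, mutant 3 were above every control, and the other 3 mutants lay among the controls. The fitted log2 difference was 0.18 (SE 0.095, 95% interval -0.023 to 0.39, edgeR adjusted p 0.292), and 0.040 without litter A. Part of its exon sequence (4.94% of bases, by GENCODE M21) is shared with Pprc1 on the opposite strand, and reads were counted without regard to strand.

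Ldb2 (chromosome 5, 44472132 to 44799680, minus strand) was the most variable of the 8 genes in controls relative to its mean. It was 48.0, 32.2, 53.5, 31.3 and 20.1 CPM in controls 1 to 5 and 39.2, 24.8, 33.0, 27.8, 31.2 and 39.8 CPM in mutants 1 to 6. All mutants lay inside the range set by controls 5 and 3. The log2 difference was -0.08 (SE 0.17, 95% interval -0.46 to 0.31, edgeR adjusted p 0.848) and had opposite signs in litters B (-0.43) and D (0.59). Once the T-run index entered the model, it was 0.69 (edgeR adjusted p 0.205).

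Of the LIM-only genes, Lmo4 (chromosome 3, 144188530 to 144205220, minus strand) was the most abundant. It ranged from 70.0 to 87.4 CPM in controls (median 71.3, n = 5) and from 62.8 to 85.7 CPM in mutants (median 67.8, n = 6), with a log2 difference of -0.10 (SE 0.091, 95% interval -0.30 to 0.098, edgeR adjusted p 0.571).

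Lmo1 (chromosome 7, 109138572 to 109175207, minus strand) was 20.6, 17.4, 14.1, 19.4 and 9.32 CPM in controls 1 to 5 and 19.7, 20.2, 19.8, 9.34, 20.6 and 16.0 CPM in mutants 1 to 6. The 2 low values, 1 in each genotype, were in control 5 and mutant 4 of litter D, the libraries with the lowest distal Hox level, while mutant 3 of the same litter was at 19.8 CPM. Its log2 difference was 0.22 (SE 0.17, 95% interval -0.16 to 0.60, edgeR adjusted p 0.501). It was 0.082 without mutant 3, 0.10 without control 5 and 0.12 without the litter block.

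Lmo2 (chromosome 2, 103957986 to 103981878, plus strand), known for its part in blood and vessel development through Tal1 and Gata factors, was the lowest of the 8. It was 11.02, 10.6, 19.4, 10.8 and 11.6 CPM in controls 1 to 5 and 14.6, 21.6, 11.6, 14.1, 11.1 and 17.3 CPM in mutants 1 to 6. Control 3 stood apart from the other controls, which lay within 10.6 to 11.6 CPM. The log2 difference was 0.29 (SE 0.16, 95% interval -0.050 to 0.64, edgeR adjusted p 0.31). It was 0.14 without mutant 2 and 0.020 without litter A. The libraries with the most Lmo2 (mutant 2, control 3 and mutant 6) also had the highest summed level of 11 macrophage genes (62.5, 46.9 and 67.1 CPM, where the other 8 libraries had 9.60 to 42.5 CPM). They were not the richest in 11 endothelial genes, of which mutant 2 had the least of all libraries (164.8 CPM, against 193.9 to 296.0 CPM in the others). In 12 red blood cell genes, mutant 2 had the highest summed level of the 11 libraries (56660 CPM) and control 3 the lowest (13120 CPM). No marker of these 3 lists was without reads over all libraries, and the part of these cells in the Lmo2 level was not tested. In the summed level of 5 distal Hox genes, mutant 2, control 3 and mutant 6 were also high (98.9, 137.7 and 137.4 CPM), as was mutant 1 (117.9 CPM). With genotype means removed, Lmo2 had an r of 0.464 with that level (permutation p 0.139), and of 0.00185 with litter removed as well.

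**Figure D4:**
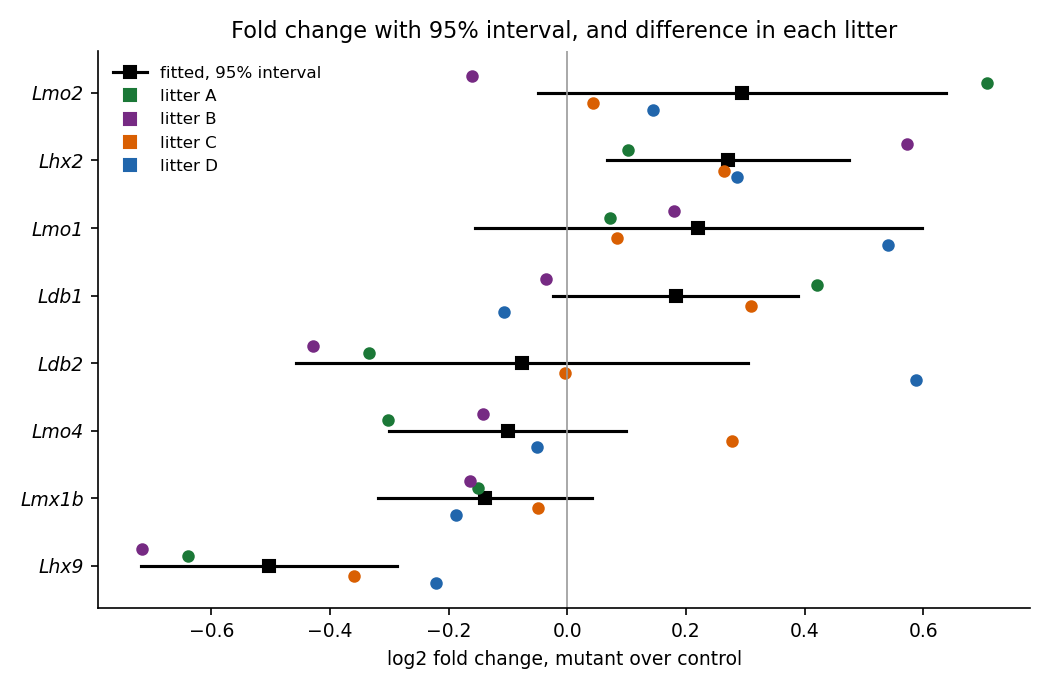
Log2 fold change of each gene, mutant over control (horizontal axis), with the fitted value and its 95% interval in black and the difference of the group means in each litter as coloured points. The interval of Lhx9 (-0.72 to -0.29) lies farthest from 0, and the litter points of Ldb2 run from -0.43 to 0.59.

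Across the 8 genes, 1 was lower and 0 were higher at an adjusted p under 0.05 in edgeR, where 2.18% of the 15821 genes tested were called in either direction (1.48% lower). DESeq2 and limma-voom, which called 7.55% and 2.77% of all genes, also called Lhx9 and no other of the 8. At an unadjusted p under 0.05 there were 2 of 8 (Lhx9 and Lhx2), beside 21.4% of all genes. Groups that did not overlap were found for 1 of 8, beside 2.59% of all genes (1.3% with mutants lower, as for Lhx9). The median log2 fold change was 0.053 over the 8 genes and 0.0038 over all genes tested, and 4 of the 8 values were above 0. These counts do not set the 8 genes apart from the rest of the table.

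Differences between litters, whatever the genotype, were tested on 3 litter coefficients together. None of the 8 passed (edgeR, 14 genes or 0.0885% of all genes did), and 4 had an unadjusted p under 0.05, beside 13.5% of all genes. These were Lmx1b (p 0.000717, adjusted 0.11), Lhx2 (p 0.00211, adjusted 0.146), Lmo1 (p 0.0414, adjusted 0.353) and Lmo2 (p 0.0448, adjusted 0.361) in edgeR. Mean log2 CPM of both Lhx2 and Lmx1b were lowest in litter B (5.08 and 4.99) and highest in litter D (5.81 and 5.64). The genotype difference did not detectably depend on the litter for any of the 8: 0 passed and 0 had an unadjusted p under 0.05 in edgeR (0 genes in all passed, and 3.82% had an unadjusted p under 0.05). That test has 3 residual degrees of freedom.

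With the genotype means removed, Lhx2 and Lmx1b were the pair that varied most closely together over the 11 libraries (Pearson r 0.778, permutation p 0.00525, adjusted 0.147 over the 28 pairs; Spearman rho 0.809, permutation p 0.00427, adjusted 0.12). Without the 2 libraries farthest from the median of Lhx2, r was 0.95, but with litter removed as well as genotype it was -0.33 (6 residual degrees of freedom). No pair passed after adjustment. The levels were also set against the summed distal Hox level (Hoxa11, Hoxa13, Hoxd11, Hoxd12 and Hoxd13) and the T-run index, 16 relations chosen after the values were seen. The permutations do not keep libraries within their litter, and each r is also given with litter removed, as a description. Lhx2 was lower in libraries where the distal Hox genes were higher (r -0.832, permutation p 0.0018, adjusted 0.0144; rho -0.773, permutation p 0.00791, adjusted 0.057). Lmx1b did likewise (r -0.845, permutation p 0.00097, adjusted 0.0144; rho -0.745, permutation p 0.0107, adjusted 0.057). Ldb2 had the opposite sign (r 0.794, permutation p 0.00316, adjusted 0.0169; rho 0.664, permutation p 0.031, adjusted 0.124). In the absence of the 2 libraries farthest from the median distal Hox level, r was -0.749, -0.60 and 0.645 for the 3 genes. With litter removed it was -0.359 for Lhx2, -0.36 for Lmx1b and 0.61 for Ldb2, so that much of the relation of Lhx2 and Lmx1b lay between litters.

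Between genotypes, edgeR called 0 of the 5 distal Hox genes, and 3 had an unadjusted p under 0.05 (21.4% of all genes did). All 5 fitted log2 differences were positive (median 0.62), from 0.041 for Hoxa13 to 0.76 for Hoxd12 (SE 0.60). The summed level overlapped, at 18.2 to 137.7 CPM in controls and 33.2 to 137.4 CPM in mutants. Of 3 proximal genes, edgeR called 1, beside 2.18% of all genes: Meis1 fell by 0.63 on the log2 scale (SE 0.10, edgeR adjusted p 0.0291). Its groups did not overlap, as was found for 2.59% of all genes. The part of these positional markers in the Lhx9 difference was not tested. With genotype means removed, no relation of Lhx9 to the distal Hox level was detected (r 0.0041, permutation p 0.99; rho -0.109, permutation p 0.754; r 0.208 with litter removed). Lmo1 had an r of 0.675 (permutation p 0.0218, adjusted 0.0697; rho 0.173, permutation p 0.614) that rested on control 5 and mutant 4, since r was -0.678 without the 2 farthest libraries (0.801 with litter removed and all libraries kept). Ldb2 was also related to the T-run index (r 0.78, permutation p 0.00466, adjusted 0.0186; rho 0.764, permutation p 0.00794, adjusted 0.057), with r 0.443 without the 2 libraries farthest on the index and 0.935 with litter removed. For Lhx9 and the index, with genotype means removed, r was 0.431 (permutation p 0.186, adjusted 0.298; rho 0.509, permutation p 0.114), and with litter removed r was 0.543.

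**Figure D5:**
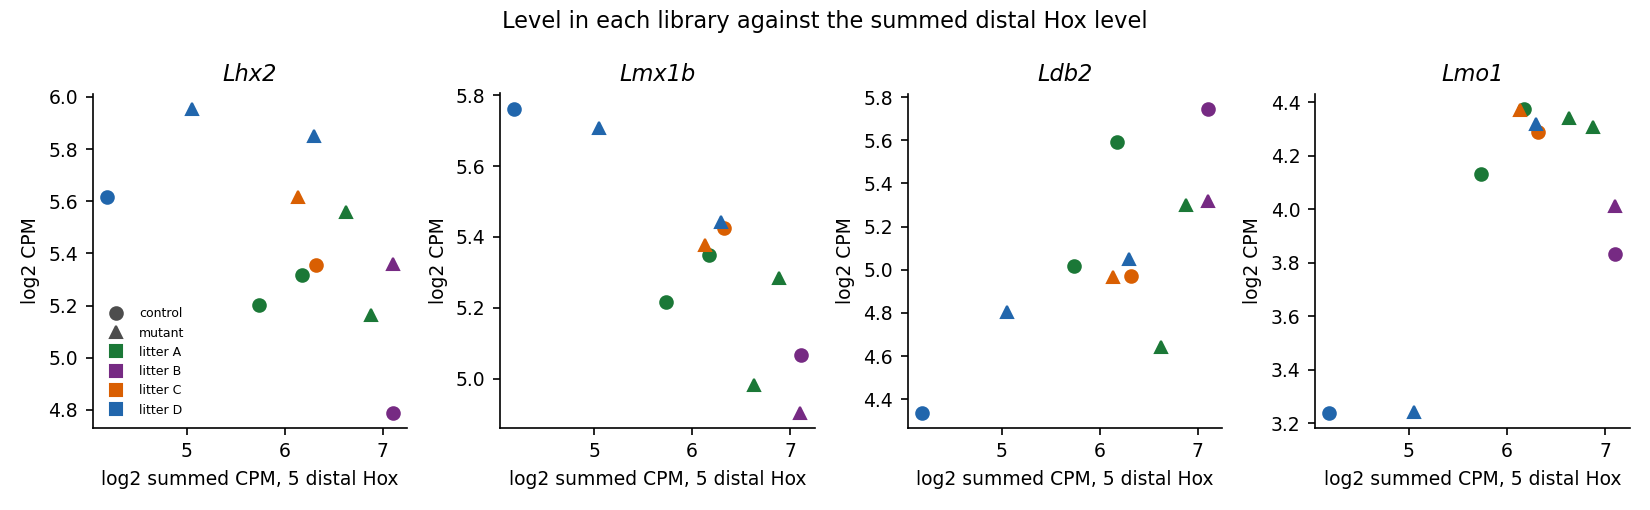
Log2 CPM of Lhx2, Lmx1b, Ldb2 and Lmo1 (vertical axes) in each library against the log2 of the summed CPM of 5 distal Hox genes (horizontal axes), with circles for controls, triangles for mutants and colours for litters. Lhx2 and Lmx1b are lower and Ldb2 higher where the distal Hox level is higher (r -0.832, -0.845 and 0.794 with genotype means removed, and -0.359, -0.36 and 0.61 with litter removed as well), and the 2 low points of Lmo1 are control 5 and mutant 4.

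None of the genes listed for ridge and dorsoventral signalling passed the test. They were 12 genes of ligands, receptors and En1, and edgeR, DESeq2 and limma-voom called 0 of them. An unadjusted p under 0.05 was found for 2 (21.4% of all genes had one). Fgf10 is counted both here and below, among genes reported to depend on Lhx2, Lhx9 or Ldb1. En1, the ventral ectoderm gene that keeps Wnt7a and so Lmx1b out of the ventral side, was 3.19 to 7.98 CPM in controls and 8.27 to 13.5 CPM in mutants. These groups did not overlap, which held for 1 of the 12 genes, beside 2.59% of all genes. The log2 difference of En1 was 0.62 (SE 0.23), with an edgeR adjusted p of 0.152. Wnt7a, the dorsal signal, had a log2 difference of 0.24 (SE 0.18, edgeR adjusted p 0.482), and Bmp4 one of 0.21 (SE 0.093, edgeR adjusted p 0.223). Fgf8, the main ridge signal, was 10.9 CPM in controls and 11.2 CPM in mutants on average. Its log2 difference was 0.042 (95% interval -0.51 to 0.595, edgeR adjusted p 0.947). By litter the difference was 0.80 in A, -1.22 in B, -0.30 in C and -0.017 in D.

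Among 9 genes that respond to ridge Fgf signals in mesenchyme, edgeR called 1 lower and 0 higher, beside 2.18% of all genes. At an unadjusted p under 0.05, 2 were higher and 2 lower, beside 21.4% of all genes. The gene called was Spry2, a feedback inhibitor of Fgf signalling, whose log2 fold change was -1.39 with an SE of 0.26 (adjusted p 0.0390 by edgeR). Its transcript carries a T run of 38 bases, so that it is 1 of the 172 genes the T-run index is made from. The fit with the index thus adjusts Spry2 in part for its own level. Its call was lost with the index in the model, without the litter block, and when any of 9 libraries was dropped (it held without control 5 or mutant 2). Dusp6, a phosphatase that dampens Erk signalling, had a log2 difference of -0.31 (SE 0.094, adjusted p 0.0918) and Spred2 one of 0.20 (SE 0.093, adjusted p 0.234), both from edgeR. The median over the 9 genes was 0.11, with 6 values above 0. Groups that did not overlap were found for 1 of the 9 (Spred2, higher in mutants), beside 2.59% of all genes. DESeq2 called 2 of the 9 (Dusp6 and Spry2), where it called 7.55% of all genes.

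None of 8 genes reported to depend on Lhx2, Lhx9 or Ldb1 in the limb was called by edgeR, while 5 had an unadjusted p under 0.05 (4 with higher and 1 with lower values, beside 21.4% of all genes) and DESeq2 called 2 (Grem1 and Gli1, where it called 7.55% of all genes). Grem1, a Bmp antagonist that maintains the ridge, averaged 16.9 ± 3.51 CPM over the 5 controls and 22.3 ± 5.54 CPM over the 6 mutants (SD), a log2 difference of 0.47 (SE 0.15, edgeR adjusted p 0.112). Ptch1 and Gli1, targets of Shh, had log2 differences of 0.37 (SE 0.13, edgeR adjusted p 0.128) and 0.70 (SE 0.27, edgeR adjusted p 0.17). In control 5, Gli1 and Ptch1 were at their lowest of all libraries, at 2.66 and 16.4 CPM.

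Of 16 partners of Ldb and Lmo proteins, 15 had enough reads, and 0 were called by edgeR. An unadjusted p under 0.05 was found for 5, beside 21.4% of all genes. DESeq2 called Ssbp3 alone, where it called 7.55% of all genes. Ssbp3, which binds and steadies Ldb proteins, averaged 772.3 ± 137.9 CPM over the 5 controls and 573.9 ± 100.3 CPM over the 6 mutants (SD), with a log2 difference of -0.39 (SE 0.12, edgeR adjusted p 0.101). Tcf12, a bHLH factor that can join Lmo complexes, had -0.23 (SE 0.088, edgeR adjusted p 0.16), and Rbbp8 had -0.20 (SE 0.088, edgeR adjusted p 0.212). Of 10 other LIM homeodomain and LIM-only genes, 6 had enough reads and 0 were called by edgeR, DESeq2 or limma-voom. An unadjusted p under 0.05 was found for 1 (Lhx1), beside 21.4% of all genes. Those of smallest p were Lhx1, Isl1 and Isl2, with log2 differences of -1.67 (SE 0.747), -0.86 (SE 0.56) and 0.45 (SE 0.295). Their edgeR adjusted p were 0.223, 0.405 and 0.416. All 10 genes were low: the highest, Lmo3, averaged 4.75 CPM in controls, and Isl1 was 11.8 CPM in control 2 and at most 3.64 CPM in the other 10 libraries.

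Genes that followed the members most closely over the 11 libraries were sought among 9617 candidates with a mean of at least 5 CPM. By Pearson r of log2 CPM, those nearest to Lhx9 were Paics (0.961), Cog6 (0.942) and Satb1 (0.942). The nearest to Lhx2 were Figf (0.943), Sfxn1 (0.936) and Crym (0.923), and to Lmx1b Yipf3 (0.938), Mthfd1l (0.928) and Cdca5 (0.926). For the cofactors the leading genes were Pex11a for Ldb1 (0.904), Trappc11 for Ldb2 (0.954), Mid1ip1 for Lmo1 (0.935), Rhoj for Lmo2 (0.898) and Slc25a39 for Lmo4 (0.886). No member stood among the 3 nearest genes of another. These are the top values of many, over libraries that share litter and genotype, and they carry no test.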

How the data were processed

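Per the file headers, the authors made the deposited counts, raw reads per gene name, with featureCounts v1.4.6-p4 on mm10 and GENCODE M9 at a mapping quality of at least 10, with no option for strand. STAR 2.5.4b is named in the submitters' processing notes. The header lists 12 alignment files. The table has 11 sample columns, all used.

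Counts were analysed with edgeR 4.0.16 in R 4.3.3: filterByExpr (15821 genes, 99.9% of counts), TMM scaling, and the quasi-likelihood F test with litter as a block, two-sided, with Benjamini-Hochberg adjustment over all genes and a threshold of 0.05. Log2 CPM used a prior count of 2. The pairing comes from the titles and the design text. Deviations from the group mean correlated at a median of 0.13 over 8 library pairs within litters and -0.02 over 22 pairs between litters. No 2 libraries of a group agreed within sampling noise (25 pairs, chi-square over its degrees of freedom at least 7.04). Alternatives were RLE and upper-quartile scaling, other filters, DESeq2 1.42.0, limma-voom 3.58.1, no block, a T-run covariate (longest T run in GENCODE M21 transcripts), and each library or litter left out. Tested on simulated data for this comparison (15455 genes), the fit recovered 99 of 100 genes changed by 1 and 99 of 100 changed by 2 on the log2 scale, with 14 calls among unchanged genes. The simulated counts held no differences between litters, and only genes above a minimum level were changed. Smaller changes were not simulated.

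The members, gene lists and naming rule were chosen with earlier results of these data known. The rule names all members, the 3 genes of smallest p in each pathway list, and the 3 nearest genes by correlation. For the cofactors only the nearest gene is printed, and some genes, such as Fgf8 and Lmo3, are named outside the rule.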

Additional observations from a re-analysis of the deposited data

Results flagged for a closer look

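Within each genotype, the gap between the most extreme library and its nearest neighbour was set against the whole range for the 8 genes, Gmnn and the T-run index, 20 groups in all, of which chance flags about 1 in 20. A library lay too far from the rest in 2 of them. Lmo1 was lowest in mutant 4, at 3.241 log2 CPM, where the other 5 mutants were at 16.0 to 20.6 CPM. Control 5 of the same litter was as low, at 9.32 CPM. Lmo2 was highest in control 3, at 4.284 log2 CPM, where the other 4 controls were at 10.6 to 11.6 CPM. Mutant 6, from the same litter as control 3, had 17.3 CPM.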

How the results depend on the processing

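The number of genes called over the whole table, 345 with the settings used, was 1566 without the filter on low counts, 550 with at least 1 CPM in 5 libraries, 1194 with DESeq2, 13 without the replicate block of litter, 4 with the T-run index in the model, and 9, 3, 1 and 148 without litters A, B, C and D. It ran from 1 to 850 when 1 library was left out. Upper-quartile scaling gave 43.1% of calls as higher in mutants, against 32.2%. Of the 8 genes, 1 (Lhx9) was called, and 0 without the replicate block (Lhx9 log2 fold change -0.49, adjusted p 0.0574), without litter A, B or C (-0.41, -0.45 and -0.53), or with the T-run index, where the value itself was smaller (-0.27). Leaving out 1 library gave 0 to 1. The cause was not tested. Lhx9 kept its negative sign in all 23 alternatives. Members called between litters numbered 5 without the filter on low counts, where 5.41% of 29256 genes were called, and 0 to 1 (Lmo1, without mutant 3) when 1 library was left out. Signs turned for 3 genes that were not called: with the T-run index, Ldb2 was 0.69, Lmo2 -0.14 and Lmo4 0.062; without litter A, Ldb2 was 0.078 and Lmo4 0.022; without litter B, Ldb2 was 0.015. Leaving out 1 library moved Ldb2 over -0.27 to 0.056. Without the filter, where 5.35% of all genes were called, the pathway lists had 1 of 10 (Isl1), 2 of 16 (Ssbp3 and Tcf12), 1 of 12 (En1), 2 of 9 (Dusp6 and Spry2) and 5 of 8 (Hoxd13, Grem1, Jag1, Gli1 and Ptch1) called. The correlations with litter removed were chosen after seeing the data. Lmo2 and Lmo1, with 163 to 355 and 133 to 369 reads per library, are the least precisely counted.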

Other observations

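The log2 ratio of the CPM of the 2 adaptors, Ldb1 over Ldb2, was 0.479, 0.918, 0.353, 0.815 and 1.79 in controls 1 to 5 and 1.16, 1.74, 1.10, 1.09, 1.13 and 0.746 in mutants 1 to 6. Control 5 and mutant 2 were the highest, and the groups overlapped. Adjusted for litter, the mutant minus control difference was 0.24.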
